A study of Drosophila melanogaster with 15 samples.

Results

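The comparison set the 3 RNA-seq libraries of L(3)mbt KD against the 3 of Lint-O KD, so that the 2 knockdowns were compared with each other and not only with control. These 6 libraries were chosen by their labels, from the 9 RNA-seq libraries of the series and its 15 samples in all. All 9 were made from OSCs, a cultured line of Drosophila ovarian somatic cells that corresponds to follicle cells and holds no germ cells, treated for 48 h with RNAi against EGFP (control), l(3)mbt or CG2662, the gene of Lint-O. The cells carried no other change named in the labels, every library came from poly-A selected RNA of this 1 line, and the study speaks of triplicate samples and of biological replicates. Neither it nor the labels say whether these were separate cultures, and p-values measure the spread between these libraries.

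L(3)mbt is a chromatin protein with MBT repeats that holds germline genes silent in somatic cells of the fly. Lint-O (CG2662) was named for its interaction with L(3)mbt in OSCs. In germ cells, Vasa, Aubergine, AGO3, Tejas and Qin act in the ping-pong cycle, in which cleavage of transposon RNA amplifies piRNAs. Follicle cells normally load their piRNAs onto Piwi alone and do not run this cycle. The comparison asks which of the genes that respond to loss of either protein respond to a different extent or in a different direction.

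Libraries held between 19139572 and 32274601 reads counted on genes. The share of reads listed outside annotated genes was 2.93% to 4.14% in L(3)mbt KD, 4.43% to 7.38% in Lint-O KD and 2.76% to 8.45% in control, where replicate 3 stood apart at 2.76%. The 2 knockdowns thus did not overlap in this share, and of the 139 called genes chosen for description 31 lost their call when this share of unassigned reads was fitted as a covariate. The loss is given beside each of them that is described. Levels are given in CPM (reads of a gene per 1e6 reads, TMM-normalized). Summed over the 6 follicle cell markers (tj, Fas3, zfh1, eya, cas and shg), they were 871 to 976 CPM in L(3)mbt KD. The same sums were 978 to 1064 CPM in Lint-O KD and 781 to 1023 CPM in control. Germline markers summed to 428 to 489, 216 to 224 and 16.8 to 17.7 CPM in the same order. Of the 6 follicle cell markers, 3 were called higher in L(3)mbt KD and 0 higher in Lint-O KD. Their median log2 fold change of L(3)mbt KD over Lint-O KD was 0.26, so the sums do not give the direction of each marker. Hemocyte markers stayed between 11.4 and 17.3 CPM in all 9 libraries. Neuron markers summed to 69.4 to 72.7 CPM in L(3)mbt KD, 76.4 to 93.7 CPM in Lint-O KD and 65.5 to 114 CPM in control. The muscle markers summed to 43.2 to 44.2 CPM in L(3)mbt KD and 27.7 to 33.2 CPM in Lint-O KD, and the fat body markers to 30.7 to 36.4 CPM and 46.7 to 63.7 CPM, with 2 and 1 of 6 listed markers past the filter on low counts. In bulk RNA, a change in the number of expressing cells and a change in RNA per cell cannot be told apart. The part of muscle or fat body RNA in the results was not tested.

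Each knockdown lowered the mRNA of its own target and left the mRNA of the other protein at or above the control level. Protein levels were not analysed here, and the mRNA does not show how much of either protein was left. The level of l(3)mbt (3R:27266326-27273273 in Release 6 of the genome, minus strand) was 72.3, 79.7 and 72.4 CPM in L(3)mbt KD and 164, 184 and 188 CPM in Lint-O KD, against 123, 139 and 141 CPM in control. It was therefore 55.6% of control in L(3)mbt KD and 133% of control in Lint-O KD. The level of CG2662 (X:2698701-2701033, plus strand) was 24.4, 24.2 and 24.1 CPM in L(3)mbt KD, 3.80, 3.44 and 3.53 CPM in Lint-O KD and 21.6, 21.1 and 21.2 CPM in control, that is, 114% and 16.9% of control. Between the knockdowns, l(3)mbt differed by a log2 fold change of -1.25 ± 0.07 (standard error; adjusted p = 1.33e-08) and CG2662 by 2.75 ± 0.09 (adjusted p = 4.74e-11), where a positive value is higher in L(3)mbt KD and p-values are from edgeR's quasi-likelihood test with Benjamini-Hochberg adjustment. For a single gene, 3 libraries against 3 cannot go below p = 0.1 in an exact two-sided permutation test, and both targets reached that value. Since 1 target was left at 55.6% and the other at 16.9% of control, the effect of the gene targeted and the effect of the depth of its depletion cannot be told apart in any result that follows. Lint-1 and CoRest, partners of L(3)mbt complexes, had log2 fold changes of -0.08 (adjusted p = 0.318) and 0.01 (adjusted p = 0.923).

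Of 8726 genes tested, 735 were higher in L(3)mbt KD (8.42%) and 489 were higher in Lint-O KD (5.6%) at an FDR of 0.01 with no minimum fold change. Differences in the first direction were larger. The median log2 fold change was 0.76 among the 735 genes and -0.39 among the 489, and 280 against 32 genes differed by a log2 of 1 or more. The control level was below both knockdowns for 584 of the 735 genes (79.5%), against 38.8% of all genes tested, and between them for 127. In 50 of the 735 genes (6.8%, against 1.71% of all genes tested) no control library held more than 3 counts. For the 489 genes the control level lay between the knockdowns for 248 (50.7%, against 22% of all genes tested). It was above both for 196 (40.1%, close to the 39.1% of all genes tested) and below both for 45 (9.2%, against 38.8%). Most genes higher in L(3)mbt KD thus had mean levels above control in both knockdowns. Without Lint-O KD replicate 2 the counts were 481 and 249, without L(3)mbt KD replicate 1 they were 504 and 241, and without Lint-O KD replicate 3 they were 551 and 313. Without control replicate 3 they were 824 and 758. No gene of the 1224 called changed sign in any of the 9 fits that left out 1 library. These genes were selected on the same libraries, so a change of sign was unlikely from the start.

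**Figure D1:**
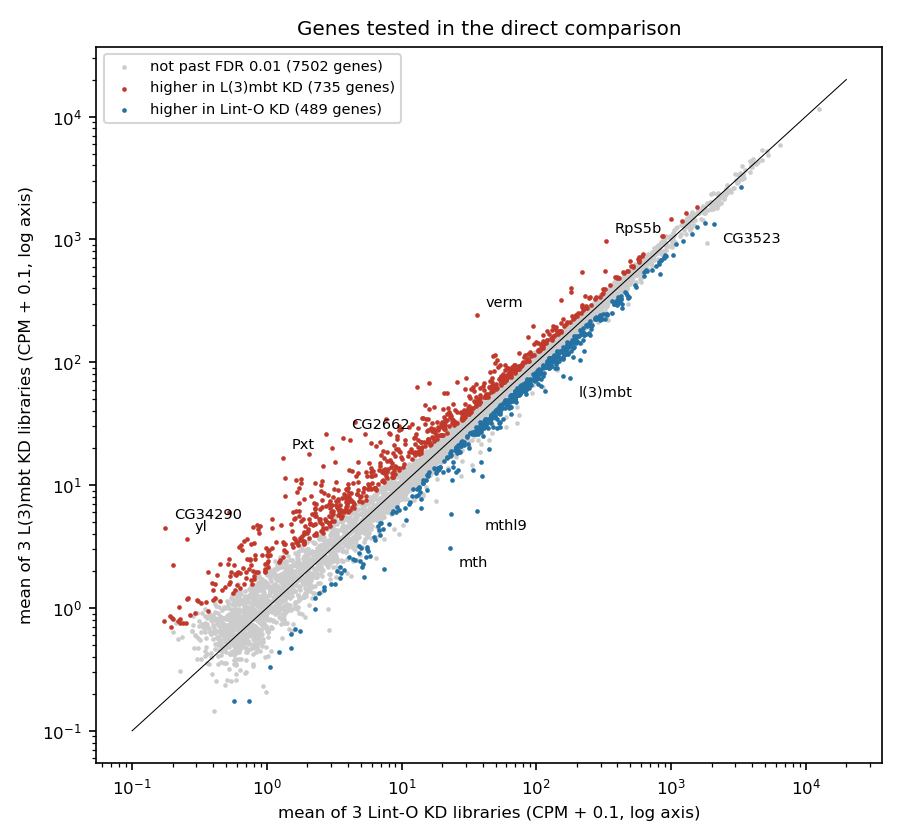
Mean level of each of the 8726 genes tested in Lint-O KD (x axis) and L(3)mbt KD (y axis), in CPM + 0.1 on log axes, with the line of equal levels. The 735 genes higher in L(3)mbt KD (red) reach far above the line, among them Pxt and yl, whereas most of the 489 higher in Lint-O KD (blue) lie close under it, with mth and mthl9 as the exceptions named.

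Germline piRNA factors did not respond as 1 group. Of the 21 measured, 5 were higher in L(3)mbt KD (23.8%, against 8.42% of all genes tested) and 1 in Lint-O KD (4.76%, against 5.6%). The other 15 passed in neither direction. The median log2 fold change was 0.08 over the list and -0.0079 over all genes tested. The level of vas, the DEAD-box helicase Vasa, was 391, 391 and 338 CPM in L(3)mbt KD, 186, 182 and 178 CPM in Lint-O KD and 3.18, 3.75 and 3.67 CPM in control. The groups did not overlap, and vas was 2.05-fold higher in L(3)mbt KD (log2 fold change 1.03 ± 0.06, adjusted p = 2.82e-08). This gene shares 563 exon bases with another gene on the same strand, so its reads may not all be its own. The level of tej, the Tudor-domain partner of Vasa, was 38.4, 36.4 and 31.4 CPM in L(3)mbt KD against 15.4, 14.2 and 12.7 CPM in Lint-O KD and 1.32, 1.90 and 1.25 CPM in control (log2 fold change 1.32 ± 0.11, adjusted p = 5.18e-07). CG13741, annotated as Boot, shares 388 exon bases with another gene on the same strand and was measured at 14.6, 16.8 and 14.6 CPM against 4.80, 5.28 and 3.90 CPM, a 3.27-fold difference (adjusted p = 5.2e-07). The level of CG9925, annotated as Kots, was low in every library, at 3.90, 2.29 and 2.42 CPM in L(3)mbt KD and 0.372, 0.536 and 0.737 CPM in Lint-O KD (log2 fold change 2.41 ± 0.35, adjusted p = 0.00017), a call lost under the covariate (log2 fold change 1.84, adjusted p = 0.0322). These 4 genes formed 1 pattern, in which Lint-O KD was above control and L(3)mbt KD well above Lint-O KD.

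In contrast, aub, which encodes the PIWI protein Aubergine, was at similar levels in both knockdowns. Its level was 110, 97.8 and 101.3 CPM in L(3)mbt KD, 93.8, 109 and 100 CPM in Lint-O KD and 10.4, 10.6 and 11.7 CPM in control. The log2 fold change between the knockdowns was 0.03 with a 95% interval from -0.12 to 0.17 (adjusted p = 0.774), an interval that does not reach the difference seen for vas. AGO3, the PIWI partner of Aubergine in ping-pong, was at 30.7, 33.3 and 41.1 CPM in L(3)mbt KD and 60.2, 47.5 and 39.7 CPM in Lint-O KD, and the groups overlapped (log2 fold change -0.49, 95% interval -0.93 to -0.05, adjusted p = 0.0976). AGO3 passed as higher in Lint-O KD with no filter on low counts (adjusted p = 0.00169) and without control replicate 3 (adjusted p = 0.00868). Under the covariate its log2 fold change was 0.09. For qin, whose product keeps ping-pong between different PIWI proteins, the level was 97.6, 108 and 93.9 CPM against 73.6, 80.3 and 83.2 CPM, a 1.26-fold difference (adjusted p = 0.00611). The qin call was lost without L(3)mbt KD replicate 1 or 2 or Lint-O KD replicate 1 or 2 (adjusted p = 0.0185 to 0.0345) and with the replicate number as a block (adjusted p = 0.0136) and under the covariate (adjusted p = 0.0385). The 1 member higher in Lint-O KD was tud, the founding Tudor-domain gene, at 135 ± 11.5 CPM in L(3)mbt KD and 178 ± 4.15 CPM in Lint-O KD (mean ± SD, n = 3, adjusted p = 0.000803). Factors of nuclear piRNA precursor transcription, rhi and cuff, differed by log2 fold changes of -0.04 and -0.03 (adjusted p = 0.797 and 0.826).

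**Figure D2:**
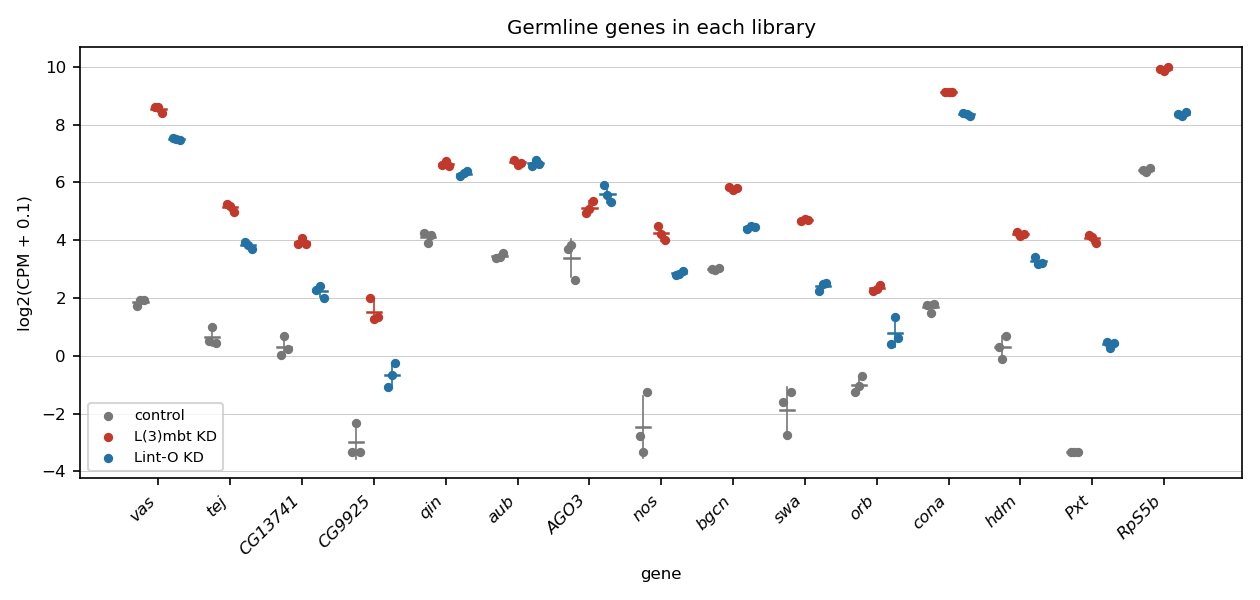
Levels of 15 germline genes in each of the 9 libraries as log2(CPM + 0.1); points are libraries, short bars are group means and vertical lines are 1 SD. L(3)mbt KD (red) lies above Lint-O KD (blue) for every gene shown but aub and AGO3, whereas the points of aub coincide and those of AGO3 overlap.

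The annotated promoters of vas and aub are shown because these 2 germline genes on 2L parted ways in the comparison, that of CG9925 because its level followed vas while its window differed in the motifs found, and that of mth because it had the largest fold among genes higher in Lint-O KD. Each runs from 250 bases before to 50 bases after the annotated gene start, 5′ to 3′ on the gene's strand, from the RefSeq annotation and sequence of Release 6. Capitals mark matches on either strand to TATCGATA (the DNA replication-related element, DRE), to TATAAA (the core promoter motif bound by TBP, here TBP motif) or to GAGAGAGA (the sequence bound by Trl, here Trl repeat).
vas, 2L:15061406-15061705, plus strand: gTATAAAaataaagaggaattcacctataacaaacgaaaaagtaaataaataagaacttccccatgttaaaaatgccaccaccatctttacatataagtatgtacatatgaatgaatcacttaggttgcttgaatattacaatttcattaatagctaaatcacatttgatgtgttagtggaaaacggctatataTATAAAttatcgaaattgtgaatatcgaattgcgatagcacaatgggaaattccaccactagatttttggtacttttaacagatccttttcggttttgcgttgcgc
aub, 2L:11001427-11001726, minus strand: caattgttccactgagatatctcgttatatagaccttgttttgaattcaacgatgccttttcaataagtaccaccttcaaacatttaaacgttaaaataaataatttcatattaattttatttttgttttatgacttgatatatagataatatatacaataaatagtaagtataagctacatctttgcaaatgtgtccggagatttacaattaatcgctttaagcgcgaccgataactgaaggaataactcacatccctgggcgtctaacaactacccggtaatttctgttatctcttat
CG9925, 3R:13964125-13964424, minus strand: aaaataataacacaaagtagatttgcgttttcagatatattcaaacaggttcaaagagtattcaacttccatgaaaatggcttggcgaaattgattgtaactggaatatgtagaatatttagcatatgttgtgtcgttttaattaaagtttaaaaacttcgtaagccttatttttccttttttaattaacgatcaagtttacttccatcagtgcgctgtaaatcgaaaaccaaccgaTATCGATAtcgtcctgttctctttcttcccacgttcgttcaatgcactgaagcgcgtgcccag
mth, 3L:346908-347207, minus strand: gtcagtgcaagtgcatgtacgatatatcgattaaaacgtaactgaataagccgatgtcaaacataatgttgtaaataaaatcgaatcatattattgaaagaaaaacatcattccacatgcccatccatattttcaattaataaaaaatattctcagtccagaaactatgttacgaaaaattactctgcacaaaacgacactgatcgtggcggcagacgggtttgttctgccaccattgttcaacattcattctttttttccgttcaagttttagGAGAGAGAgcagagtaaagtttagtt

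The vas window held a TBP motif match at 249 and 56 bases before the gene start, the aub window held none of the 3 motifs, the CG9925 window held the DRE from 13 bases before the start, and the mth window held the Trl repeat from 24 bases after it. Over the windows of the 8622 genes tested that could be located, the DRE was found in 13.9%. It was found in 7.02% of the windows of genes higher in L(3)mbt KD, in 5.43% of those higher by a log2 of 1 or more and in 12.4% of those of genes higher in Lint-O KD. The TBP motif was found in 44.2% of all windows, in 41.4% of those of genes higher in L(3)mbt KD and in 43.6% of those of genes higher in Lint-O KD. For the Trl repeat the shares were 2.95%, 4.54% and 3.72% in the same order. Among genes higher in L(3)mbt KD by a log2 of 1 or more, the TBP motif was found in 41.3% and the Trl repeat in 2.54%. These shares are a description of the annotated windows.

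Among piRNA factors that follicle cells use themselves, 1 passed in each direction (4.76% each). These shares are no higher than the 8.42% and 5.6% of all genes tested. Of 21 measured, Hen1, the methyltransferase that modifies piRNA ends, was the 1 higher in L(3)mbt KD, at 38.5 CPM against 27.6 CPM (log2 fold change 0.48, adjusted p = 0.00022). SoYb, a Tudor-domain factor of piRNA processing, was the 1 higher in Lint-O KD, at 140 CPM against 102 CPM (log2 fold change -0.45, adjusted p = 0.000277). The level of piwi was 1619 ± 58.6 CPM in L(3)mbt KD and 1451 ± 27.8 CPM in Lint-O KD (mean ± SD, n = 3), a difference that did not pass (adjusted p = 0.039). Neither did fs(1)Yb (log2 fold change -0.19, adjusted p = 0.0143), armi (0.05, adjusted p = 0.515) or zuc (0.16, adjusted p = 0.18). With DESeq2 on all 9 libraries piwi passed as higher in L(3)mbt KD (adjusted p = 0.00561) and fs(1)Yb as higher in Lint-O KD (adjusted p = 0.00945). The latter also passed with DESeq2 on the 6 libraries, with the correction for GC content and without control replicate 3 (adjusted p from 0.0076 to 0.0095). Other genes that the study discusses did not pass, with log2 fold changes of -0.04 for Nup154 (adjusted p = 0.661), -0.12 for RpL9 (adjusted p = 0.15), 0.07 for th, the apoptosis inhibitor Diap1 (adjusted p = 0.394), and 0.34 for ex, a Hippo pathway component (adjusted p = 0.108).

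Among germ cell and oocyte factors outside the piRNA pathway, 11 of 34 measured were higher in L(3)mbt KD (32.4%, against 8.42% of all genes tested). In Lint-O KD 0 were higher (against 5.6%), and the median log2 fold change was 0.15. The largest folds in the list were those of yl and Pxt. The level of yl, the yolk protein receptor of the oocyte, was 3.90, 4.004 and 2.73 CPM in L(3)mbt KD and 0.124, 0.179 and 0.158 CPM in Lint-O KD, with 3 counts in all over the control libraries. That of Pxt, a peroxidase-like enzyme of prostaglandin synthesis in the ovary, was 17.9, 17.1 and 14.8 CPM in L(3)mbt KD and 1.28, 1.12 and 1.26 CPM in Lint-O KD, a 13.5-fold difference (log2 fold change 3.76 ± 0.15, adjusted p = 4.73e-09). No control library held a Pxt read, so that L(3)mbt KD was at least 136-fold and Lint-O KD at least 10.0-fold above control when each control library is set at 3 counts. For both genes every L(3)mbt KD library lay far above every Lint-O KD library.

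The level of swa, swallow, which anchors bicoid mRNA in the oocyte, was 25.2, 26.7 and 25.99 CPM against 4.63, 5.54 and 5.58 CPM (log2 fold change 2.31 ± 0.12, adjusted p = 8.45e-09). That of bgcn, a partner of Bam in germ cell differentiation, was 57.6, 53.6 and 55.9 CPM against 20.6, 22.6 and 21.6 CPM (log2 fold change 1.37 ± 0.07, adjusted p = 2.73e-09), with 7.92 CPM in control. The level of nos, the translational repressor Nanos, was 22.6, 18.7 and 15.8 CPM against 6.90, 7.02 and 7.48 CPM (log2 fold change 1.42 ± 0.17, adjusted p = 4.03e-05). Under the covariate the nos call was lost (log2 fold change 0.95, adjusted p = 0.0102). All 3 separated the knockdowns without overlap. The mRNA-binding orb was 2.93-fold higher in L(3)mbt KD (adjusted p = 0.000125) and TrxT, a thioredoxin of the male germline, 4.11-fold higher (adjusted p = 0.00039). By contrast osk, which organises the germ plasm, was at 1.57 and 1.37 CPM (adjusted p = 0.721) and bam at 8.75 and 6.54 CPM (adjusted p = 0.0256).

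Meiosis genes showed the same order of groups in a few members. Of 26 measured, 4 were higher in L(3)mbt KD (15.4%, against 8.42% of all genes tested) and 1 in Lint-O KD (3.85%, against 5.6%). The median log2 fold change was 0.11. The level of cona, a component of the synaptonemal complex that joins homologous chromosomes, was 558, 562 and 553 CPM in L(3)mbt KD, 337, 327 and 314 CPM in Lint-O KD and 3.27, 2.68 and 3.39 CPM in control (log2 fold change 0.77 ± 0.05, adjusted p = 1.12e-07). CG8316, annotated as corolla, encodes another component of that complex and was at 64.0, 57.4 and 55.9 CPM against 42.7, 42.3 and 37.9 CPM (log2 fold change 0.53, adjusted p = 0.000106). CG32088, annotated as the cohesion factor sunn, was 2.46-fold higher in L(3)mbt KD (adjusted p = 1.3e-08) and hdm, a recombination factor, 1.92-fold higher (adjusted p = 3.35e-05). The 1 member higher in Lint-O KD was mei-41, the ATR checkpoint kinase, at 26.03 CPM in L(3)mbt KD, 35.8 CPM in Lint-O KD and 37.1 CPM in control (log2 fold change -0.46, adjusted p = 0.000429).

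RpS5b, the germline copy of ribosomal protein S5, showed the largest difference in CPM among the 735 genes. Its level was 961, 921 and 1026 CPM in L(3)mbt KD, 331, 313 and 346 CPM in Lint-O KD and 85.1, 82.8 and 90.7 CPM in control (log2 fold change 1.55 ± 0.06, adjusted p = 2.94e-10). Its paralog RpS5a did not pass, at 3059 and 3193 CPM (log2 fold change -0.06, adjusted p = 0.517). Per kilobase of exon, RpS5b stood at 1019 CPM and RpS5a at 2207 CPM in L(3)mbt KD, and reads common to both could not be assigned with certainty. Over the 87 cytoplasmic ribosomal protein genes measured, 2 were higher in each direction (2.3% each, against 8.42% and 5.6% of all genes tested). The median log2 fold change was -0.11. Of the 2 higher in Lint-O KD, RpL5 and RpS14a, neither call survived all fits with 1 library left out (adjusted p up to 0.0139 for RpL5 and 0.0506 for RpS14a, without L(3)mbt KD replicate 1 or 2 or Lint-O KD replicate 1 or 3 for both and without control replicate 1 for RpS14a). The count higher in Lint-O KD was 4 without control replicate 2 or 3, 10 without L(3)mbt KD replicate 3 and 18 with the replicate block.

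Tubulins had a median log2 fold change of 0.74 and 0 members higher in Lint-O KD. Of 10 measured, 5 were higher in L(3)mbt KD (50%, against 8.42% of all genes tested). These were the alpha-tubulins alphaTub85E and alphaTub67C, the beta-tubulins betaTub60D and betaTub97EF and the gamma-tubulin gammaTub37C, of which alphaTub67C and gammaTub37C are known as maternal isotypes. The level of betaTub60D was 302, 342 and 328 CPM in L(3)mbt KD, 143, 151 and 165 CPM in Lint-O KD and 196, 177 and 202 CPM in control (log2 fold change 1.08 ± 0.07, adjusted p = 5.52e-08), so that the knockdowns lay on opposite sides of control. That of gammaTub37C was 19.6 CPM against 9.27 CPM, with 0.284 CPM in control (adjusted p = 9.46e-06). The abundant betaTub56D and alphaTub84B did not pass, with log2 fold changes of 0.24 (adjusted p = 0.0155) and 0.10 (adjusted p = 0.361). For betaTub56D this depended on the setting, since it passed as higher in L(3)mbt KD in both DESeq2 fits (adjusted p = 0.000481 and 0.000436), with the replicate block (adjusted p = 0.000794), without control replicate 3 (adjusted p = 0.00623) and in 6 other alternatives. BigH1, the linker histone of the early embryo and germ line, was at 49.8, 46.9 and 39.8 CPM against 23.8, 24.8 and 23.9 CPM, with 0.187 CPM in control (log2 fold change 0.91, adjusted p = 9.28e-06).

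The largest folds in favour of L(3)mbt KD were carried by genes that were near 0 in control. CG34290 held 344 counts over the 3 L(3)mbt KD libraries and 5 over the 3 Lint-O KD libraries, a ratio of 58.0 with a 95% counting interval from 24.6 to 180 that covers counting error only. In CG33257 the level was 32.4, 34.4 and 31.4 CPM in L(3)mbt KD and 4.22, 4.25 and 4.69 CPM in Lint-O KD, a 7.47-fold difference (adjusted p = 7.14e-11), with 5 counts in all over the control libraries. The level of verm, vermiform, a chitin deacetylase of tracheal cuticle, was 236, 247 and 243 CPM in L(3)mbt KD, 35.5, 34.2 and 38.7 CPM in Lint-O KD and 3.73, 2.48 and 2.59 CPM in control (log2 fold change 2.74 ± 0.08, adjusted p = 3.04e-11). Mlc2, a muscle myosin light chain, was 3.18-fold higher in L(3)mbt KD at 25.8 CPM against 8.11 CPM (adjusted p = 1.3e-08). Neither verm nor Mlc2 was among the 12 largest folds, which CG34290 and CG33257 were. Others of the 12 were CG5592, dao, alpha-catenin-related, hebe, CG9068 and CG1136, with log2 fold changes of 4.26, 3.73, 3.26, 3.18, 3.15 and 2.86 and adjusted p of 0.00136 or less. NijB and CG7201, with no more than 3 counts in any Lint-O KD library, had pooled count ratios of 8.29 (95% counting interval 3.59 to 23.5) and 8.004 (3.46 to 22.7), and like CG1136 they were below 1 CPM in every group. The CG7201 call was lost without L(3)mbt KD replicate 3 or Lint-O KD replicate 1 or 2 (adjusted p up to 0.0123) and that of CG1136 without Lint-O KD replicate 1 (adjusted p = 0.0104). Under the covariate the calls of NijB, CG7201 and CG1136 were lost (adjusted p = 0.0257, 0.153 and 0.0195).

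By the difference in CPM, RpS5b was followed by Pdcd4, His3.3B, the long noncoding CG32368, ATPsyn-beta, cona, CG1667, CG1746, verm, CG3800, AGO2 and vas. Of these, CG1667, annotated as the antiviral signalling adaptor Sting, was at 421, 415 and 381 CPM against 186, 181 and 176 CPM and at 31.5 CPM in control (log2 fold change 1.16 ± 0.05, adjusted p = 1.92e-09). CG32368 was at 549, 527 and 557 CPM against 234, 223 and 193 CPM (log2 fold change 1.33 ± 0.09, adjusted p = 7.09e-08). Pdcd4, related to an inhibitor of translation initiation in mammals, was at 1570, 1665 and 1157 CPM against 1039, 1014 and 954 CPM (adjusted p = 0.00111). The abundant ATPsyn-beta and CG1746, subunits of mitochondrial ATP synthase, differed by 0.25 on the log2 scale each (adjusted p = 0.00688 and 0.00491). Both calls were lost when any knockdown library but L(3)mbt KD replicate 2 was left out, adjusted p reaching 0.0361 for ATPsyn-beta without L(3)mbt KD replicate 1 and 0.0266 for CG1746 without Lint-O KD replicate 2. AGO2, the siRNA-binding Argonaute, was at 1071 and 874 CPM (log2 fold change 0.29, adjusted p = 0.0018), a call lost without L(3)mbt KD replicate 2 or Lint-O KD replicate 1 (adjusted p = 0.0103 and 0.0122). All 3 calls were also lost under the covariate (adjusted p = 0.0385 for ATPsyn-beta, 0.0294 for CG1746 and 0.0109 for AGO2).

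In the opposite direction 9 of the 12 genes with the largest folds had their highest mean level in control, the exceptions being CG40298, CG5958 and CG13029. Mth and its relatives are G protein-coupled receptors, of which mth is known for its part in lifespan and stress resistance of the adult fly. The level of mth was 3.44, 2.82 and 2.70 CPM in L(3)mbt KD, 24.1, 21.9 and 22.4 CPM in Lint-O KD and 40.2, 42.2 and 40.03 CPM in control (log2 fold change -2.93 ± 0.10, adjusted p = 7.14e-11). That of mthl9 was 5.20, 5.68 and 7.15 CPM, 35.7, 33.3 and 38.9 CPM and 91.3, 96.2 and 98.1 CPM in the same order (log2 fold change -2.57 ± 0.10, adjusted p = 4.05e-10). The third, mthl10, was low, at 0.569 CPM in L(3)mbt KD and 1.52 CPM in Lint-O KD against 2.86 CPM in control (adjusted p = 0.000848). These 3 genes follow each other on the minus strand of 3L within the span of Ptpmeg, a tyrosine phosphatase gene of the plus strand that did not pass (log2 fold change 0.19, adjusted p = 0.0175), mthl9 at 329822-332309, mthl10 at 332801-342915 and mth at 343378-346957. Elsewhere on 3L, at 8178675-8180514, mthl7 went the other way, at 7.92 CPM in L(3)mbt KD and 3.70 CPM in Lint-O KD with 4 counts in all over the control libraries (log2 fold change 1.10, adjusted p = 0.000355), a call lost under the covariate (adjusted p = 0.0133). Of the 11 methuselah receptors measured, 2 were higher in L(3)mbt KD (18.2%, against 8.42% of all genes tested) and 3 in Lint-O KD (27.3%, against 5.6%). Their median was 0.00. The count higher in L(3)mbt KD was 1 without L(3)mbt KD replicate 1 or Lint-O KD replicate 1 or 2. It was 0 with the percentage of unassigned reads as a covariate.

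Galt, the galactose-1-phosphate uridylyltransferase of galactose breakdown, was at 5.43, 5.59 and 6.29 CPM in L(3)mbt KD, 21.4, 22.9 and 25.3 CPM in Lint-O KD and 38.2, 42.8 and 45.1 CPM in control, 4.002-fold lower in L(3)mbt KD (adjusted p = 4.81e-09). CG8213, annotated as the serine protease flz, was at 10.9, 12.9 and 11.3 CPM in L(3)mbt KD and 35.5, 37.2 and 46.3 CPM in Lint-O KD, which overlapped control at 46.9, 38.7 and 42.7 CPM (log2 fold change -1.76 ± 0.11, adjusted p = 4.16e-08). Cpr62Bc, a cuticle protein, had a log2 fold change of -1.67 (adjusted p = 0.000448), and CG40298, at 1.99 CPM in L(3)mbt KD, 7.28 CPM in Lint-O KD and 0.701 CPM in control, one of -1.84 (adjusted p = 0.000244). Argk, the arginine kinase that buffers ATP, had the control level on the same side, at 507, 501 and 557 CPM against 820, 795 and 872 CPM, with 1020, 962 and 1152 CPM in control (log2 fold change -0.67 ± 0.07, adjusted p = 7.67e-06). The remaining members of the 12 largest folds, CG5958, CG30116, eg, CG13029 and CG45061, were at 1.66 CPM or less in both knockdowns, and each call was lost in 1 to 6 of the fits with 1 library left out. The libraries were L(3)mbt KD replicate 1 for CG30116, CG45061 and CG5958, Lint-O KD replicate 2 for CG5958, L(3)mbt KD replicate 3 and Lint-O KD replicate 1 for eg, and these 4 with control replicates 1 and 2 for CG13029 (adjusted p up to 0.0558). In control CG5958 was at 0.559 CPM and CG13029 at 0.786 CPM, against 0.949 and 1.66 CPM in Lint-O KD. The calls of eg and CG13029 were also lost under the covariate (adjusted p = 0.0117 and 0.0725), and that of CG13029 with other scalings and the correction for exon length (adjusted p from 0.01 to 0.0114).

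Lipid synthesis genes were higher in Lint-O KD for 4 of 16 measured (25%, against 5.6% of all genes tested). They were higher in L(3)mbt KD for 0, and the median log2 fold change was -0.09. CG3523, annotated as FASN1, the fatty acid synthase, was the only one of the 4 called in every fit with 1 library left out. Its level was 1209, 1428 and 1343 CPM in L(3)mbt KD, 1945, 2056 and 2239 CPM in Lint-O KD and 1579, 1462 and 1662 CPM in control (log2 fold change -0.65 ± 0.07, adjusted p = 1.83e-05). Desat1, Hmgs and ACC, enzymes of fatty acid desaturation, sterol-type precursor synthesis and malonyl-CoA synthesis, had log2 fold changes of -0.31, -0.21 and -0.31. Without L(3)mbt KD replicate 1 all 3 calls were lost (adjusted p = 0.0104, 0.0266 and 0.0326), and the count was 2 without Lint-O KD replicate 2 or 3. With the correction for exon length the ACC call was lost as well (log2 fold change -0.15, adjusted p = 0.0847). Inos, the enzyme that makes inositol phosphate from glucose phosphate, was at 705 and 894 CPM (log2 fold change -0.34, adjusted p = 0.000967).

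Matrix genes split by subunit. Of 20 basement membrane and integrin genes measured, 5 were higher in L(3)mbt KD (25%, against 8.42% of all genes tested) and 3 in Lint-O KD (15%, against 5.6%). Cg25C and vkg, the 2 chains of collagen IV, which lie next to each other on 2L (5029609-5037279, plus strand, and 5012144-5028191, minus strand), were both higher in L(3)mbt KD. Cg25C was at 111, 122 and 112 CPM against 45.1, 46.1 and 57.8 CPM and 20.7 CPM in control (log2 fold change 1.22 ± 0.09, adjusted p = 1.98e-07). For vkg the level was 26.8, 28.4 and 27.6 CPM against 13.7, 15.9 and 16.5 CPM, with 7.37 CPM in control (log2 fold change 0.85 ± 0.08, adjusted p = 4.41e-06). The integrin subunit gene scb was 1.69-fold higher (adjusted p = 6.19e-07). LanA, the laminin alpha chain, was instead at 701, 776 and 745 CPM in L(3)mbt KD and 986, 1010 and 1090 CPM in Lint-O KD, with 801 CPM in control (log2 fold change -0.47 ± 0.06, adjusted p = 6.65e-05). Also higher in Lint-O KD was rhea, the integrin adaptor talin (log2 fold change -0.50, adjusted p = 9.81e-05).

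Ligands of the JAK/STAT pathway, which act as cytokines in the fly, were lower in Lint-O KD. The level of upd3 was 11.8, 12.1 and 11.3 CPM in L(3)mbt KD, 6.04, 5.63 and 5.74 CPM in Lint-O KD and 8.41, 7.75 and 9.01 CPM in control (log2 fold change 1.01 ± 0.10, adjusted p = 5.39e-06). That of upd2 was 2.52, 2.68 and 2.52 CPM against 1.08, 0.894 and 0.474 CPM, with 2.61 CPM in control (adjusted p = 0.000374). Socs36E, a target gene and feedback inhibitor of the pathway, was at 162, 181 and 164 CPM against 123, 124 and 126 CPM and at 167 CPM in control (log2 fold change 0.44 ± 0.07, adjusted p = 0.000296). These 3 of the 11 members measured (27.3%, against 8.42% of all genes tested) were the only ones called. The median log2 fold change was -0.06. The receptor dome, the kinase hop and the transcription factor Stat92E did not pass (adjusted p = 0.458, 0.239 and 0.0132). For Socs36E and upd2 it was thus Lint-O KD, and not L(3)mbt KD, that stood below control.

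Among antimicrobial and NF-kB response genes, 7 of 16 measured were higher in L(3)mbt KD (43.8%, against 8.42% of all genes tested). In Lint-O KD 2 were higher (12.5%, against 5.6%), and the median log2 fold change was 0.42. The level of Dif was 7.61, 8.404 and 7.98 CPM in L(3)mbt KD, 1.61, 1.83 and 2.69 CPM in Lint-O KD and 1.77, 2.05 and 1.53 CPM in control (log2 fold change 1.99 ± 0.18, adjusted p = 1.7e-06), so that Lint-O KD overlapped control. The peptidoglycan recognition genes PGRP-SC2 and PGRP-SA were higher in L(3)mbt KD by 2.16-fold and 2.73-fold (adjusted p = 7.67e-05 and 0.000126), and pirk, an inhibitor of the Imd pathway, was at 85.9 CPM against 58.5 CPM (adjusted p = 4.05e-05). CecA1, an antimicrobial peptide, went the other way, at 2.45, 2.73 and 2.45 CPM against 6.32, 5.63 and 5.16 CPM (log2 fold change -1.17, adjusted p = 9.22e-05). The count higher in L(3)mbt KD was 4 without L(3)mbt KD replicate 2 or Lint-O KD replicate 1, and also 4 once that same share of unassigned reads was fitted as a covariate. Of 12 RNA interference genes measured, AGO2 was the 1 higher in L(3)mbt KD (8.33%, against 8.42% of all genes tested). Higher in Lint-O KD (25%, against 5.6%) were Dcr-2 (561 against 727 CPM, adjusted p = 0.000192), vig (351 against 470 CPM, adjusted p = 0.000952) and Ranbp21 (86.4 against 106 CPM, adjusted p = 0.00635). Ranbp21 was among the calls lost with the correction for exon length (adjusted p = 0.0149) and with the replicate block (adjusted p = 0.0101). Its call was also lost without L(3)mbt KD replicate 1 or 3 or Lint-O KD replicate 2 or 3 (adjusted p up to 0.0337). CecA1 has near-identical copies, so its reads may not all be its own.

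**Figure D3:**
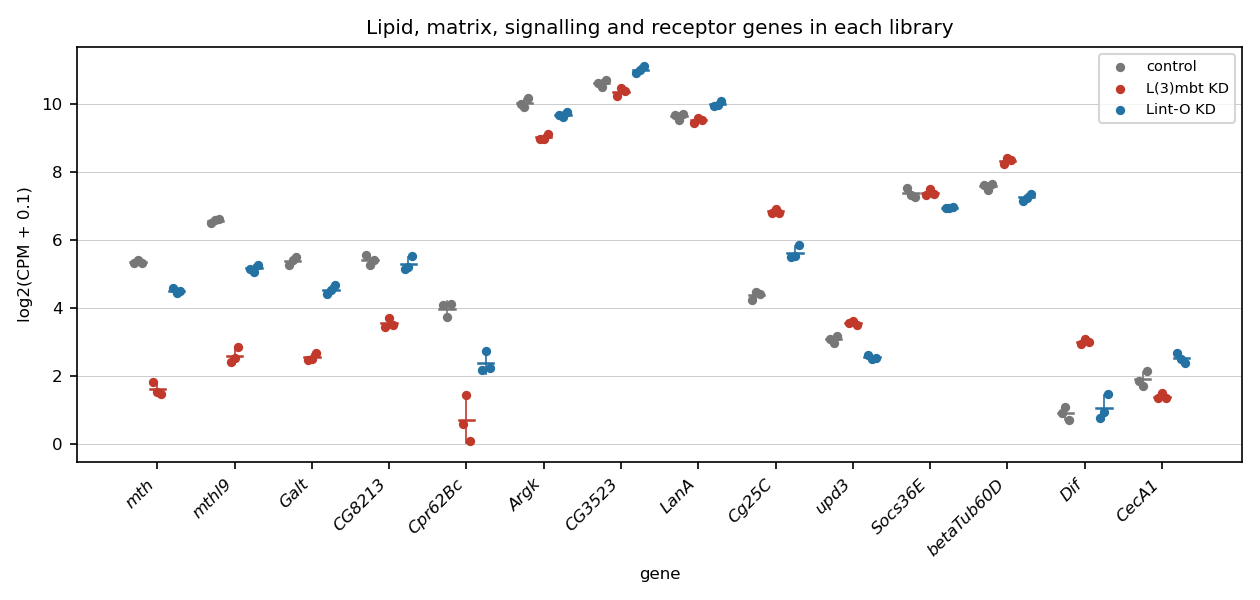
Levels of 14 genes in each of the 9 libraries as log2(CPM + 0.1); points are libraries, short bars are group means and vertical lines are 1 SD. Lint-O KD (blue) lies between L(3)mbt KD (red) and control (gray) for mth, mthl9, Galt, Argk and Cg25C, and on the other side of control from L(3)mbt KD for CG3523, LanA, upd3, betaTub60D and CecA1.

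Genes of follicle cell identity were higher in L(3)mbt KD for 7 of 24 measured (29.2%, against 8.42% of all genes tested) and higher in Lint-O KD for 0. With 1 library left out, up to 2 were higher in Lint-O KD. The median log2 fold change was 0.07, with 15 members above 0 and 9 below. Their summed level went the other way, at 2723.5 to 2858 CPM in L(3)mbt KD and 2952.1 to 3110.6 CPM in Lint-O KD. Ance, a peptidase, was at 7.07 CPM against 1.64 CPM (log2 fold change 2.11, adjusted p = 1.93e-07), and the signalling gene Wnt2 at 50.8 CPM against 32.2 CPM (adjusted p = 2.16e-05). The transcription regulator eya and the adhesion gene Fas3 were at 77.7 and 32.3 CPM in L(3)mbt KD and at 56.7 and 19.8 CPM in Lint-O KD (adjusted p = 1.32e-05 and 2.27e-05). The defining factors tj and zfh1 did not pass, at 446 against 551 CPM (adjusted p = 0.0913) and 311 against 335 CPM (adjusted p = 0.36). The gene tj passed as higher in Lint-O KD with DESeq2 on the 6 libraries (adjusted p = 0.000767), with no filter on low counts (adjusted p = 0.00298) and without control replicate 3 (adjusted p = 0.0055). The Hippo pathway genes d and fj, both of the Fat branch, had log2 fold changes of 1.01 and 0.62 (adjusted p = 4.05e-05 and 0.000608). Of 22 Hippo genes measured, 4 were higher in L(3)mbt KD (18.2%, against 8.42% of all genes tested). That count was 2 without L(3)mbt KD replicate 2 or 3 or Lint-O KD replicate 1, or with the percentage of unassigned reads as a covariate. The 1 higher in Lint-O KD (4.55%, against 5.6%) was ft, the gene of Fat itself. Its call was lost under the covariate (adjusted p = 0.0104) and with the correction for exon length (adjusted p = 0.0131). It was also lost without L(3)mbt KD replicate 1 or Lint-O KD replicate 2 or 3. The transcription factor p53 was at 94.5 CPM against 68.1 CPM and 52.2 CPM in control (adjusted p = 1.58e-05). It shares 812 exon bases with a gene on the opposite strand. Of 15 apoptosis genes measured, 2 were higher in L(3)mbt KD (13.3%, against 8.42% of all genes tested). That count was 1 without L(3)mbt KD replicate 1 or 3 or Lint-O KD replicate 2 or 3. HP1D3csd, a relative of the heterochromatin protein HP1, was 2.20-fold higher in L(3)mbt KD (adjusted p = 3.2e-05). A Myb-MuvB subunit, mip120, was the 1 of 13 genes of that complex and its relatives that was higher (log2 fold change 0.40, adjusted p = 6.32e-05). This share of 7.69% is no higher than the 8.42% of all genes tested.

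Housekeeping lists gave few calls or small differences. Of 33 aminoacyl-tRNA synthetases measured, 5 were higher in Lint-O KD (15.2%, against 5.6% of all genes tested) and 0 in L(3)mbt KD. The log2 was below 0 for 29, with a median of -0.13. Aats-glupro was at 249 CPM against 330 CPM and 355 CPM in control (log2 fold change -0.41, adjusted p = 8.51e-05), and the list's count fell to 1 without Lint-O KD replicate 2, to 2 without L(3)mbt KD replicate 1 or 2 or Lint-O KD replicate 3 and to 3 without Lint-O KD replicate 1, and was 8 without control replicate 3. In the respiratory chain 6 of 67 were higher in L(3)mbt KD (8.96%, near the 8.42% of all genes), led by CoVIb (log2 fold change 0.47, adjusted p = 2.24e-05), and 2 or 3 were called when any knockdown library but L(3)mbt KD replicate 2 was left out. For proteasome (35 measured), mitosis (36), vacuolar ATPase (23) and BMP pathway (15) genes edgeR called 0 in either direction, with 6, 12, 9 and 4 members at an unadjusted p under 0.05 and DESeq2 on all 9 libraries calling 0, 3, 1 and 1. Polycomb and trithorax genes were higher in Lint-O KD for 4 of 23 (17.4%, against 5.6% of all genes tested). These were Psc, trx, brm and ash1, with log2 fold changes from -0.42 to -0.30. The count was 0 without Lint-O KD replicate 2 and 2 without L(3)mbt KD replicate 3. It was 1 with a correction for exon length or without L(3)mbt KD replicate 1 or Lint-O KD replicate 3. The ash1 call was also lost under the covariate (adjusted p = 0.0102). The lncRNA CR42862, RpL5, larp, Lk6, Chd64 and alpha-Spec, which were among the 12 largest CPM differences in favour of Lint-O KD beside CG3523, CG6330, Argk, Desat1, LanA and Inos, had log2 fold changes from -0.39 to -0.31, and each of these 6 calls was lost without L(3)mbt KD replicate 1 (adjusted p from 0.0101 to 0.0265). The larp call was lost under the covariate (adjusted p = 0.022), and those of larp, Lk6 and alpha-Spec with the correction for exon length (adjusted p = 0.0118, 0.0217 and 0.0296).

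The other lists were small in their counts. Neuronal genes were higher in Lint-O KD for 3 of 12 measured (25%, against 5.6% of all genes tested), led by the serotonin receptor 5-HT1B (log2 fold change -0.67, adjusted p = 0.000414). Testis-expressed genes were higher in L(3)mbt KD for 4 of 14 (28.6%, against 8.42%). These were bgcn and TrxT, also counted as germ cell factors, and achi and vis. The calls of achi and vis were lost under the covariate (adjusted p = 0.0113 and 0.0153). With 1 library left out the list's count was 2 to 5. The dosage compensation factor msl-2 was the 1 of 8 in its list called (12.5%, against 5.6% of all genes tested). It was at 12.4 CPM in L(3)mbt KD, 17.8 CPM in Lint-O KD and 24.9 CPM in control (log2 fold change -0.53, adjusted p = 0.00113). Among signalling genes disp, which releases Hedgehog, was higher in Lint-O KD (log2 fold change -0.42, adjusted p = 0.000263) and pnt, the transcription factor of EGFR signalling, in L(3)mbt KD (0.49, adjusted p = 0.000296). Each was the 1 member called, of 13 (7.69%, against 5.6% of all genes tested) and of 22 (4.55%, against 8.42%). The cuticle gene TwdlG was at 9.43 CPM against 1.63 CPM (log2 fold change 2.53, adjusted p = 2.65e-08). Its list was made by symbol and also held genes that are not cuticle genes, such as Cpr and Acp26Aa. Of its 13 genes measured, 2 were called in each direction (15.4% each, against 8.42% and 5.6% of all genes tested). The call of Cpr65Ay, higher in Lint-O KD, was lost under the covariate (adjusted p = 0.0136) and with the replicate block (adjusted p = 0.0101). It was also lost without L(3)mbt KD replicate 1 or 2 or Lint-O KD replicate 1 or 2. His3.3B, a histone H3.3 gene with a paralog coding for the same protein, was at 1627 and 1292 CPM (adjusted p = 0.000852). The small heat shock gene Hsp67Bc was 2.42-fold higher in L(3)mbt KD (adjusted p = 6.27e-05).

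**Figure D4:**
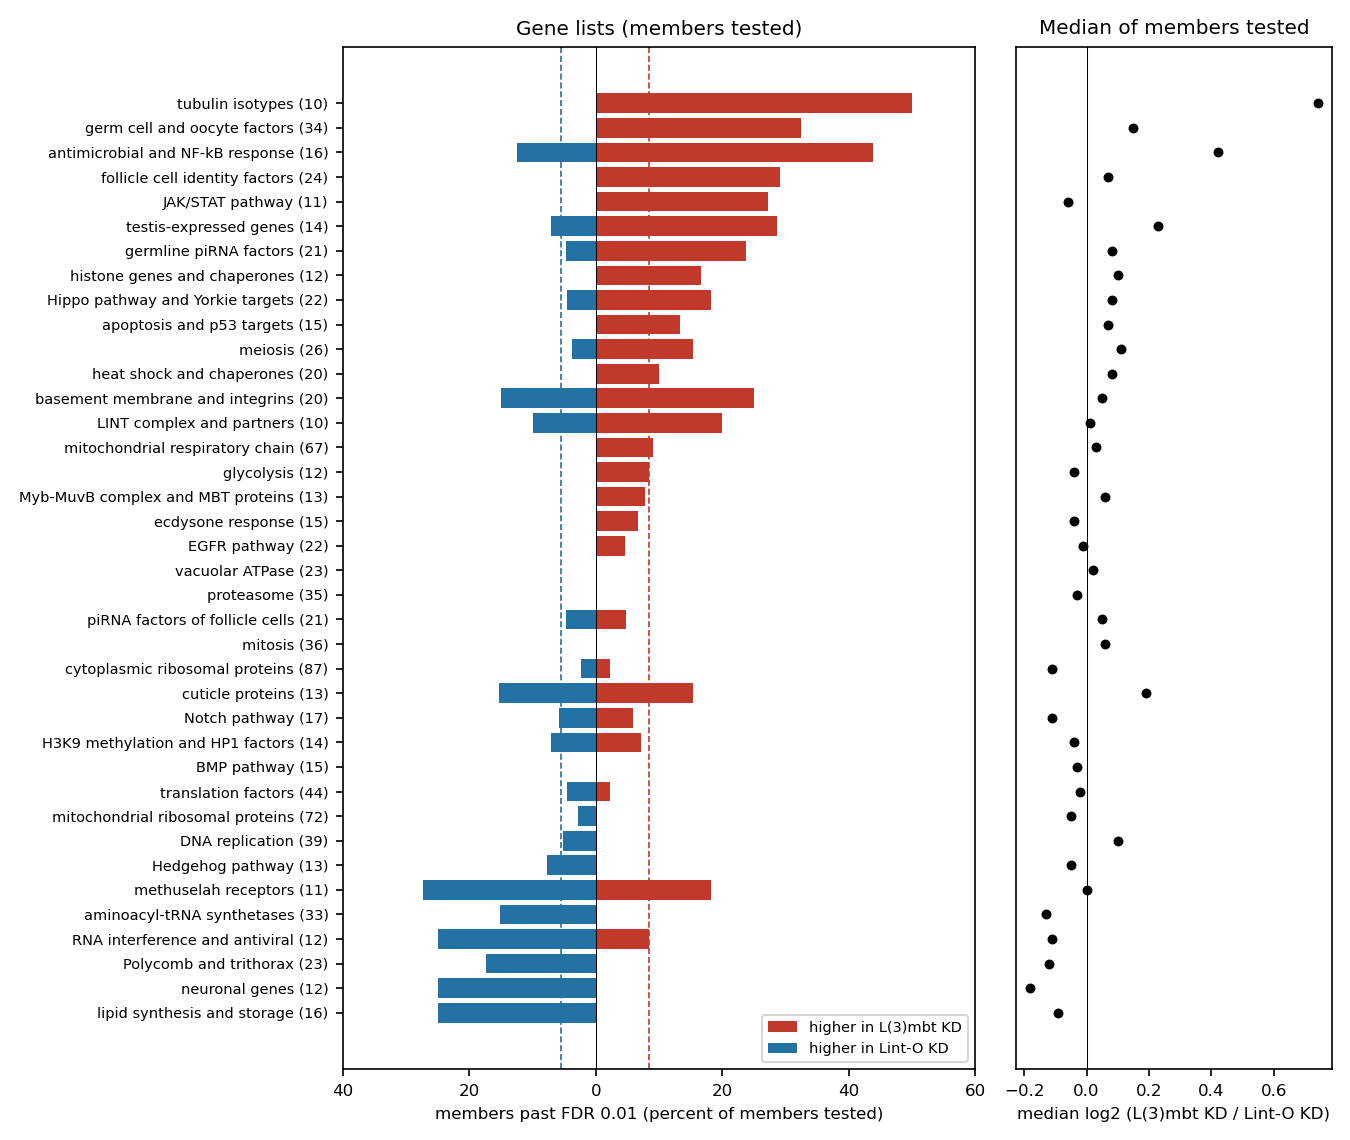
Share of the measured members of each gene list past an FDR of 0.01 (left panel, percent, red higher in L(3)mbt KD and blue higher in Lint-O KD, with the share among all genes tested as dashed lines at 8.42 and 5.6) and the median log2 fold change of the members (right panel). Tubulin, antimicrobial, germ cell and follicle cell identity lists reach furthest to the right, and the methuselah receptor list has the highest share higher in Lint-O KD (27.3%), before the neuronal, lipid and RNA interference lists (25% each).

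A difference by position in the genome was not kept when the percentage of reads assigned to no gene was fitted as a covariate. The 85 genes measured on chromosome 4, which is small and largely heterochromatic, had a median log2 fold change of -0.30, with 71 below 0, against medians between -0.02 and 0.02 on the other arms. Of the 85, 7 were higher in Lint-O KD (8.24%, against 5.6% of all genes tested) and 2 in L(3)mbt KD (2.35%, against 8.42%). Their median deviation from the mean of all 9 libraries was -0.04, -0.05 and 0.05 in L(3)mbt KD, 0.35, 0.27 and 0.05 in Lint-O KD and 0.03, 0.02 and -0.59 in control, where replicate 3 had the smallest percentage of unassigned reads. With this percentage fitted as a covariate the median was 0.02. The covariate was fitted beside the groups, so its slope came from differences within groups. Across groups the deviation did not follow the percentage. Control replicates 1 and 2 had the highest percentages, 8.45% and 7.97%, but deviations below those of Lint-O KD. The cause of the chromosome 4 difference was not tested. Among the genes on this chromosome, Rfabg, the lipid carrier apolpp and the fat body marker called, was at 34.2 CPM in L(3)mbt KD and 56.2 CPM in Lint-O KD (adjusted p = 0.00714), a call lost under the covariate (adjusted p = 0.0455) and under DESeq2 (adjusted p = 0.0412), and in 5 of the fits with 1 library left out, each an L(3)mbt KD library or Lint-O KD replicate 1 or 2 (adjusted p up to 0.0395). Genes with the largest total exon length were higher in Lint-O KD more often, 14.1% of the class from 4074 bases upward against 2.9% to 3.83% in the other, shorter classes of about equal size. With a correction for this exon length, 372 of the 489 genes remained. The part of reads outside annotated genes and of exon length in the other results was not tested beyond these alternatives.

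**Figure D5:**
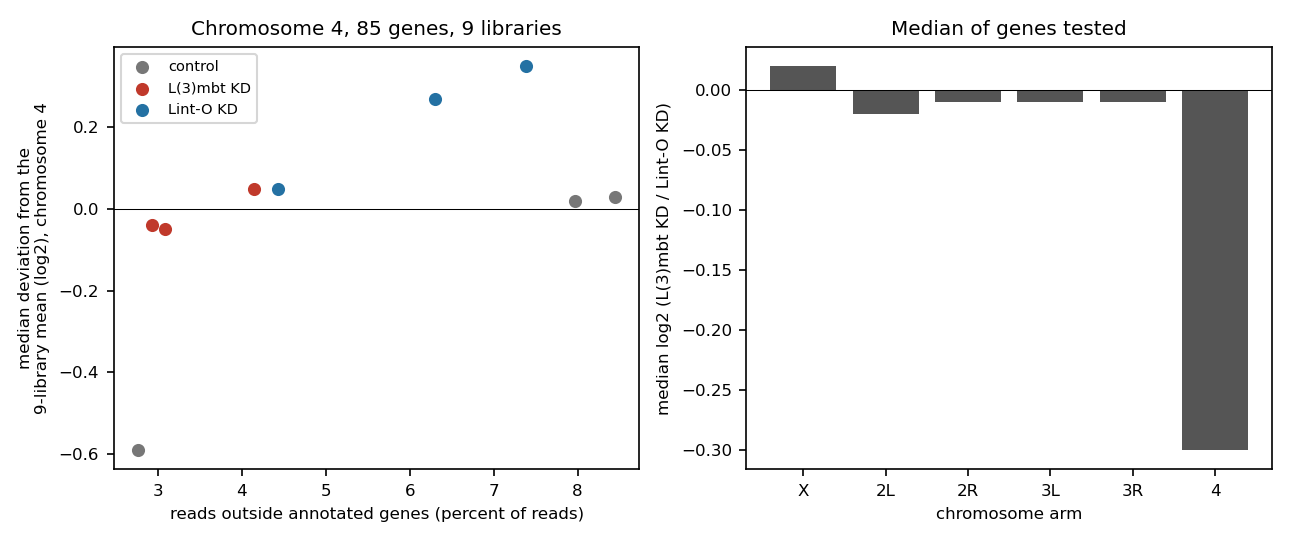
Left, median deviation of the 85 genes of chromosome 4 from their mean over 9 libraries (log2, y axis) against the percentage of reads outside annotated genes in each library (x axis). Right, median log2 fold change of the genes tested on each chromosome arm, with chromosome 4 at -0.30 and the other arms between -0.02 and 0.02.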

How the data were processed

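The authors deposited raw read counts for each gene, and these were used for the 9 poly-A RNA-seq libraries. Per the submitters' notes and the paper's methods, reads on rRNAs were excluded, the others were mapped to dm6 with HISAT2 and counted with HTSeq; versions, annotation and strand setting are not given in the sources used here. The 5 summary rows were left out. Reads outside annotated genes made up 2.76% to 8.45% of each library.

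Of 16727 genes listed, 16444 (98.3%) were matched to the RefSeq annotation of Release 6. Counts were filtered (filterByExpr), scaled (TMM) and fitted over all 9 libraries with edgeR 4.0.16 in R 4.3.3 (glmQLFit, glmQLFTest), with Benjamini-Hochberg adjustment over 8726 genes and an FDR of 0.01. CPM are TMM-normalized; 1 library's floor of 3 counts was 0.0958 to 0.158 CPM. On simulated data for these 8726 genes, edgeR recovered 86% of 200 genes changed by a log2 of 1, with 3 false calls. These counts were drawn from edgeR's own fitted spread. They held no shift between libraries such as that in unassigned reads, so false calls from such shifts were not measured.

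Genes named were those the study discusses, the 12 with the largest fold (at least 10 counts on average, no overlap) and the 12 with the largest CPM difference in each direction, and up to 4 called members of each list with the smallest adjusted p. Named outside this rule, after their values were seen, were RpS5a, Lint-1, CoRest, osk, bam, tj, zfh1, betaTub56D, alphaTub84B, tud, rhi, cuff, mei-41, gammaTub37C, PGRP-SA, rhea, dome, hop, Stat92E and Ptpmeg. The members and lists were chosen with earlier results of these data known. Intervals are 95%. Alternatives were DESeq2 1.42.0, its size factors, library totals, no filter, at least 10 counts in each library, 6 libraries only, the replicate block, reads outside annotated genes as a covariate, an FDR of 0.05, a minimum log2 of 1 and each library left out; corrections for exon length and GC content were chosen after seeing the data.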

Additional observations from a re-analysis of the deposited data

Results flagged for a closer look

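Between genes named, 3 were past the threshold against control in opposite directions in the 2 knockdowns and differed in the direct test. These were l(3)mbt itself (log2 fold change of L(3)mbt KD against Lint-O KD of -1.25), which was depleted in the first and above control in the second, upd3 (1.01) and betaTub60D (1.08), both above control in L(3)mbt KD and below it in Lint-O KD. Over all genes tested, 3 were above control in L(3)mbt KD and below it in Lint-O KD by these tests, and 7 the other way.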

How the results depend on the processing

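The counts of genes higher in L(3)mbt KD and in Lint-O KD (735 and 489) lay between 481 and 824 and between 241 and 758 with 1 library left out. At an FDR of 0.05 they were 1214 and 1029, and among genes that also differed by a log2 of 1 or more they were 280 and 32. DESeq2 on only the 6 libraries gave 756 genes higher in Lint-O KD and the fit with no filter 828, while genes higher in L(3)mbt KD stayed within 1.5 times. Of the 735 and 489 genes, 725 and 476 remained with DESeq2 on all 9 libraries, 473 and 363 with reads outside annotated genes as a covariate, and 735 and 469 with the GC correction. With the replicate block the counts were 729 and 527, and the deviations of same-numbered libraries were correlated by 0.0104, 0.0463 and 0.0015, so that the numbers did not show a pairing. The block changed the call of 6 of the 158 genes named. The 2 targets kept sign and call in every alternative. Signs changed only for genes that did not pass. Under the covariate the log2 fold change was -0.043 for aub, 0.086 for AGO3, -0.029 for CoRest and -0.004 for alphaTub84B. With the correction for exon length it was 0.036 for Nup154 and 0.010 for zfh1. With 1 library left out it lay between -0.023 and 0.087 for aub (below 0 without L(3)mbt KD replicate 1 or Lint-O KD replicate 1), between -0.104 and 0.019 for Nup154 (above 0 without L(3)mbt KD replicate 1), between -0.016 and 0.030 for CoRest (below 0 without L(3)mbt KD replicate 1 or Lint-O KD replicate 1 or 2) and between -0.032 and 0.307 for osk (below 0 without Lint-O KD replicate 3). The cause of these changes was not tested. A gene with 3 counts in a library lies at 0.0958 to 0.158 CPM, below which no difference was detectable.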
